A study of Mus musculus with 12 samples.

Results

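The collagen chain genes were taken as all genes on a mouse expression array whose array name is Col, a number, the letter a and a number, counting non-control features only. There were 44 such genes, carried by 66 probes, of 31131 gene names on the array. Their transcripts were measured in macrophages sorted from pancreatic tumours of mice, on 6 arrays of cells labelled YFP+ and 6 arrays of cells labelled YFP-. Both groups are described as female C57/B6 animals of 8 to 10 weeks with implanted tumours, the genotype is given as not provided, and each group holds 1 array for every one of tumours 1 to 6 (numbered here in the order of the labels). The design text of the series mentions wild-type, KPC and FLT3-CRE/LSL-YFP mice, and no label ties a sample to one of them. In a mouse with both a Cre recombinase driven by Flt3, a receptor of blood progenitors, and a YFP reporter behind a stop cassette, YFP marks the descendants of cells that made Cre, so a YFP- cell is one in which the cassette was not removed, whatever its origin. Nothing in the labels tells if arrays sharing a tumour number come from 1 animal, or if different numbers are separate animals, and p-values therefore reflect the variation among these arrays alone, part of which may be technical.

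Collagens are secreted or membrane proteins whose chains wind around each other in a rigid helix. The chains are coded by separate genes, and several types form only when chains of different genes combine, such as type I from Col1a1 and Col1a2. Fibrillar collagens build the load-bearing fibres of connective tissue, network collagens the sheets of basement membranes, FACIT collagens (fibril-associated collagens with interrupted helices) coat fibres, and transmembrane collagens sit in the plasma membrane of the cell that makes them. In tissue, fibroblasts are the best known source of fibrillar collagens, and pancreatic cancer is known for a dense collagen-rich stroma.

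A level below is the log2 processed signal of a gene's probe minus the 75th percentile of its array. Levels are compared between arrays for 1 probe and never between genes, since probes differ in how strongly they hybridise. YFP+ arrays were brighter, with a 75th percentile between 3264 and 3931 units against 2121 to 3332 in YFP-, and 63.4% to 66.3% of their spots were well above background against 61.6% to 64.3%. The labels call the cells macrophages, and 13 of 13 macrophage markers, Csf1r, Adgre1 and C1qa among them, were well above background on all 12 arrays. In bulk samples like these, fewer cells of a type and less RNA per cell cannot be told apart.

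Several collagen genes, 11 of 28 tested, were lower in YFP+ than in YFP- macrophage samples, and the others were not called in either direction. Of the 44 genes, 28 exceeded background clearly (the scanner software's flag for it was set) on 6 or more of the 12 arrays and were tested together with all other such genes on the array, 20370 in all. With limma and an adjusted p under 0.05, 11 of the 28 were called lower in YFP+, against 1.41% of all genes tested. The genes called were the fibrillar chains Col1a1, Col1a2, Col3a1 and Col5a1, the network chains Col4a1 and Col8a1, the FACIT chain Col12a1, the type VI chains Col6a1 and Col6a2, and the multiplexins Col15a1 and Col18a1. That fit left the arrays unpaired. With the tumour number as a block 9 were called lower, without Col6a2 and Col8a1, against 246 of all 20370 genes. None of the 28 was called higher in YFP+ by limma, where 0.334% of all genes were, and none had a higher level at an unadjusted p under 0.05 (3.72% of all genes had), where 15 had a lower one (7.51% of all genes). With quantile normalization, median centring, the deposited table or array brightness as a covariate, 1 gene, Col11a2, was higher at that unadjusted threshold. All 6 YFP+ arrays lay below all 6 YFP- arrays for 9 of the 28, against 1.46% of all genes, and the opposite held for 0 of the 28, against 0.427%. The median log2 difference of the tested collagen genes, YFP+ minus YFP-, was -1.69, and that of all genes tested was -0.03. When arrays were centred on their medians in place of the 75th percentile, the median of all genes moved to 0.18 and that of the collagen genes to -1.48. Then 10 collagen genes were called lower and 0 higher, against 230 and 116 of all 20370 genes. That centring also moved the share of called genes that were higher in YFP+ from 19.1% to 33.5% over the whole array. Filtering on detection favours genes that are high in 1 group. Col6a3, Col13a1 and the called gene Col8a1 (3 YFP+ and 6 YFP- arrays) reached 6 arrays mainly through YFP- arrays. When detection on all 12 arrays was asked for, 19 collagen genes were tested, without the called genes Col8a1 and Col12a1. Of these 19, 9 were called lower, against 193 of all 15131 genes tested, with a median of -1.24.

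**Figure D1:**
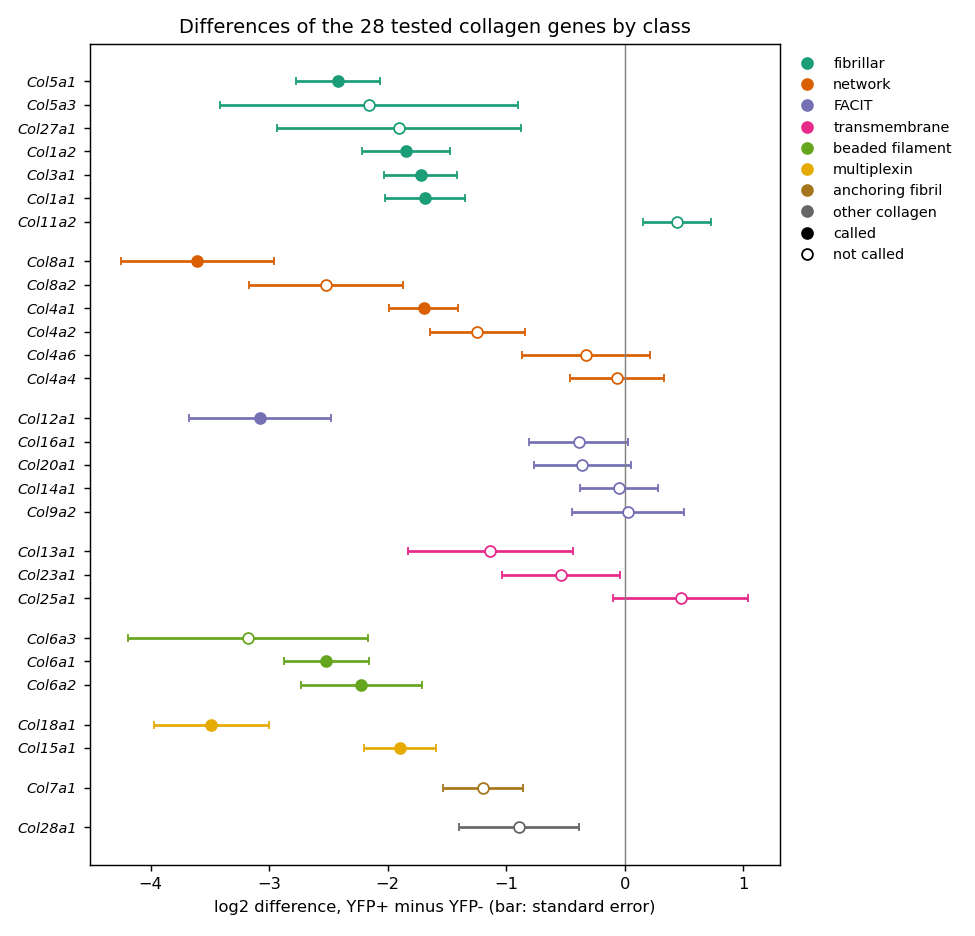
Log2 difference (x axis, YFP+ minus YFP-, 6 arrays each) of the 28 tested collagen genes, grouped by class, with limma's standard error as bars and filled points for called genes. All filled points lie left of 0, between -3.61 for Col8a1 and -1.69 for Col1a1, and 3 open points lie right of it.

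Array brightness moved with the groups, as its ranges above show. With the log2 75th percentile as a covariate 0 collagen genes were called, with limma adjusted p from 0.10 for Col4a1 to 0.51 for Col1a2 among the 11, and 8 genes were called lower and 3 higher over the whole array. In that fit Col11a2 was higher at an unadjusted limma p under 0.05 (1.28, SE 0.44, adjusted p = 0.35). Of all 28 tested differences 20 were below 0, and the 11 kept their sign. They were larger in size for 6 of the 11, such as Col4a1 at -2.50, Col15a1 at -2.24 and Col12a1 at -3.44, and smaller for 5, such as Col1a1 at -1.19, Col1a2 at -1.01 and Col18a1 at -2.99. The median of the 11 was -2.47 against -2.22 without the covariate, their standard errors were 0.46 to 1.22 against 0.29 to 0.64, and the median of all 28 tested was -1.28. The part of brightness in the differences was not tested further.

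The fibrillar class has 11 genes on the array, of which 7 were tested and 4 were called lower in YFP+. Type I collagen is the main fibre of tendon, bone and tumour stroma. Its first chain, Col1a1, had levels from 1.49 to 3.30 in YFP+ (median 2.61) and from 3.51 to 4.69 in YFP- (median 4.03). The groups did not overlap, and the level was 3.22-fold lower in YFP+ (log2 difference -1.69, SE 0.33, limma adjusted p = 0.023, n = 6 arrays per group). Col1a2, which codes the partner chain, lay between 1.72 and 3.47 in YFP+ (median 2.93) and between 3.74 and 5.39 in YFP- (median 4.57). These groups too were apart, at 3.59-fold lower in YFP+ (-1.84, SE 0.37, adjusted p = 0.025). Both type I chains were highest on the YFP- array of tumour 5 and, within YFP+, on the array of tumour 1. Their calls were lost when single arrays were left out, those of YFP+ tumour 3, YFP- tumour 2 or YFP- tumour 5 for Col1a1 and of YFP+ tumour 4 or YFP- tumour 2, 3 or 5 for Col1a2, with adjusted p up to 0.059 and 0.063.

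Col3a1 codes type III collagen, which forms fine fibres with type I in soft tissue and healing wounds. Its levels ran from 2.08 to 3.46 in YFP+ (median 2.83) and from 3.97 to 5.53 in YFP- (median 4.49). Every YFP- array was above every YFP+ array, by a mean difference of 3.30-fold (-1.72, SE 0.31, limma adjusted p = 0.013). Col5a1, a chain of type V collagen that starts fibres and limits their width, ran from -0.78 to 1.53 in YFP+ (median 0.25) and from 2.31 to 3.26 in YFP- (median 2.65). This was the largest called difference of the class, 5.34-fold lower in YFP+ with no overlap (-2.42, SE 0.35, adjusted p = 0.0040). Col3a1 and Col5a1 stayed called when any of the 12 arrays was left out.

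Among the other fibrillar genes, Col5a3, another type V chain, was above background on 3 arrays of each group, and its difference of -2.16 had a wide error (SE 1.26, adjusted p = 0.59). Col27a1, a fibrillar collagen of cartilage and developing tissue, was above background on 4 YFP+ and 6 YFP- arrays and differed by -1.90 (SE 1.03, adjusted p = 0.55). Both groups of arrays overlapped for these genes. Col11a2, a cartilage chain, was above background on all 12 arrays and differed by 0.44 in the opposite direction (95% interval -0.18 to 1.06, adjusted p = 0.64). The other 4 fibrillar genes were too dim to test. Col5a2, the type V partner chain of Col5a1 and neighbour of Col3a1 on the chromosome, was above background on 0 YFP+ and 2 YFP- arrays, the cartilage collagen Col2a1 on 0 and 2, Col11a1 on 0 and 1, and Col24a1 on 2 and 1.

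The sequences upstream of the called fibrillar genes are shown because these genes were lower together, and each holds a different set of the short elements searched. RefSeq promoter windows (GRCm38.p6) were matched by symbol for 35 of the 44 collagen genes, 38 windows in all, and the 250 bases before each start were searched on both strands for TATAAA, for CCAAT and for GGGCGG, the letters of the TATA box, the CCAAT box and the GC box. Matches are in capitals, and neighbouring GGGCGG matches can overlap. Col1a1 and Col12a1 have no window in that table. The windows below are Col1a2 at chr6:4505368-4505617 (plus strand), Col3a1 at chr1:45311288-45311537 (plus strand) and Col5a1 at chr2:27886175-27886424 (plus strand), each 5′ to 3′.
Col1a2: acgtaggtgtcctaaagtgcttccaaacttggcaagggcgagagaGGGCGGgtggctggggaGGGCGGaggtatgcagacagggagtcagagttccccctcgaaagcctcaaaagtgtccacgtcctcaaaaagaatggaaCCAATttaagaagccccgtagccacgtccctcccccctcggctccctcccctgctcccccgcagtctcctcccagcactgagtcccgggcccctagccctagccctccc
Col3a1: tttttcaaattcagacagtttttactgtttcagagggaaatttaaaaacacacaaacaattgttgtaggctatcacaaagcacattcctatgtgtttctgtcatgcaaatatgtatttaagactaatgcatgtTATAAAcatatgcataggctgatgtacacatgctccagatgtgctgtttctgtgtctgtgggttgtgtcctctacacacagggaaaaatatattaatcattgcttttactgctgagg
Col5a1: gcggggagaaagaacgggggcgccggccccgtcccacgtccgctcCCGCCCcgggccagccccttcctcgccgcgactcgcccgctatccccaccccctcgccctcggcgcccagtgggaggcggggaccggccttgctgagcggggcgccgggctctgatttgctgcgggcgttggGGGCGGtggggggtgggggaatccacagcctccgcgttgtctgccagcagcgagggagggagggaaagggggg
The Col1a2 window holds 1 CCAAT and 2 GGGCGG matches and no TATAAA, that of Col3a1 holds 1 TATAAA and neither of the others, and that of Col5a1 holds 2 GGGCGG matches alone. Their G and C content was 62%, 35.2% and 76.4%. Over all 32851 windows of the table, 12.4% held TATAAA, 33.9% CCAAT and 32.7% GGGCGG, and over the 38 collagen windows 5, 13 and 22 did. A match describes these letters only.

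The network class has 9 genes on the array, of which 6 were tested and 2 were called lower in YFP+. Type IV collagen is the sheet that all basement membranes are built on, and its common form is made of Col4a1 and Col4a2 chains. Col4a1 had levels from -0.68 to 0.19 in YFP+ (median -0.15) and from 0.61 to 2.17 in YFP- (median 1.501). The groups were apart, with Col4a1 3.24-fold lower in YFP+ (-1.70, SE 0.29, limma adjusted p = 0.0097), and its value is a mean of 10 spots. Col4a2 ran from -1.85 to 0.90 in YFP+ (median -0.28) and from 0.05 to 1.41 in YFP- (median 0.79). These overlapped, and its difference of -1.24 was not called (SE 0.40, 95% interval -2.12 to -0.36, adjusted p = 0.20). Both genes lie side by side on chromosome 8 on opposite strands, with RefSeq starts 21 bases apart, and whether their differences differ from each other was not tested.

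Type VIII collagen makes hexagonal lattices under endothelium and in vessel walls. Its chain Col8a1 had levels from -6.18 to -4.05 in YFP+ (median -5.00), where 3 of 6 arrays were above background, and from -4.33 to -0.04 in YFP- (median -1.01), where all 6 were. It passed the filter mainly through its YFP- arrays and was called lower in YFP+ (log2 difference -3.61, SE 0.64, adjusted p = 0.013). The size of that difference rests in part on YFP+ arrays that were not above background, and with normexp background correction it was -2.05. The YFP- array of tumour 6, at -4.33, lay within the YFP+ range, and the other 5 YFP- arrays lay above all YFP+ arrays. Col8a2, the partner chain, was between -3.99 and -3.39 in YFP+ (median -3.77) and between -4.31 and 0.59 in YFP- (median -1.18). The YFP- array of tumour 4 was the lowest of all 12 and the other 5 were the highest, so that the difference of -2.52 was not called (SE 0.65, adjusted p = 0.085) and reached an adjusted p of 0.0011 without that array.

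The remaining type IV chains form the specialised membranes of kidney, lung and some epithelia. Col4a4 was above background on all 12 arrays and differed by -0.07 (SE 0.40, 95% interval -0.93 to 0.80), a sign that turned with quantile normalization and with median centring. Col4a6, above background on 3 YFP+ and 5 YFP- arrays, differed by -0.33 (SE 0.54, adjusted p = 0.90). Its 95% interval of -1.50 to 0.84 is wide beside that of Col4a4. Col4a3 was above background on 1 YFP+ and 3 YFP- arrays and Col4a5 on 0 and 1, and the growth plate collagen Col10a1 was above background on none. In RefSeq order Col4a3 neighbours Col4a4 and Col4a5 neighbours Col4a6, the same arrangement as for Col4a1 and Col4a2.

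The FACIT class has 9 genes on the array, of which 5 were tested and 1, Col12a1, was called lower in YFP+. Type XII collagen bridges type I fibres in tissues under tension. Col12a1 had levels from -5.53 to -2.22 in YFP+ (median -2.90), with 5 of 6 arrays above background, and from -1.21 to 1.04 in YFP- (median -0.46), with all 6 above. The groups did not overlap, and Col12a1 was lower in YFP+ (log2 difference -3.07, SE 0.60, limma adjusted p = 0.022; -2.26 with normexp). Leaving out the YFP+ array of tumour 4 or the YFP- array of tumour 2 ended the call (adjusted p up to 0.054), and its second probe was above background on none of the 12 arrays.

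Col14a1, which coats fibrils in skin and tendon, was above background on all 12 arrays and nearly equal in the groups. Its levels ran from 0.37 to 1.99 in YFP+ (median 0.82) and from 0.19 to 1.96 in YFP- (median 1.05), a difference of -0.05 (SE 0.33, 95% interval -0.77 to 0.67). The interval excludes a difference of the size measured for Col12a1, but the difference between these genes was not itself tested. The sign for Col14a1 turned with median centring, and its second probe gave 0.36. The others above background on all 12 arrays were Col16a1, found around fibres and at cell junctions, at -0.39 (SE 0.42, adjusted p = 0.81), Col20a1 at -0.36 (SE 0.41, adjusted p = 0.83) and the cartilage chain Col9a2 at 0.03 (SE 0.47, adjusted p = 0.996, with its sign turned by normexp). A second probe of Col16a1, on 3 YFP+ and 5 YFP- arrays, gave -1.83 and was not called. Col9a1 was above background on 2 YFP+ and 3 YFP- arrays and Col19a1 on 2 and 0, while Col9a3 and Col22a1 were above background on none.

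Transmembrane collagens, 4 genes of which 3 were tested, were not called in either direction. Col13a1, a collagen of neuromuscular junctions and adhesion sites, was above background on 2 YFP+ and 4 YFP- arrays and differed by -1.14 (SE 0.69, 95% interval -2.65 to 0.37, adjusted p = 0.61). Col23a1 ran from -3.57 to -1.78 in YFP+ (median -2.06) and from -3.13 to -0.28 in YFP- (median -1.78), a difference of -0.54 (SE 0.50, adjusted p = 0.78). Col25a1, a collagen of neurons, ran from -3.84 to -1.31 in YFP+ (median -2.59) and from -4.67 to -1.49 in YFP- (median -2.88), a difference of 0.47 (SE 0.57, adjusted p = 0.85). The groups overlapped for all 3 genes. For Col25a1 a second probe above background on all 12 arrays gave -0.33, so its direction depends on the probe. Col17a1, the hemidesmosome collagen of epithelial cells, was above background on 0 YFP+ and 2 YFP- arrays.

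Type VI collagen forms beaded filaments around cells from Col6a1, Col6a2 and a longer chain such as Col6a3. Of 6 genes of this class 3 were tested, and 2 were called lower in YFP+. Col6a1 had levels from -1.70 to 0.23 in YFP+ (median -1.15) and from 0.44 to 2.22 in YFP- (median 1.75). No array overlapped between the groups, and the log2 difference was -2.52 (SE 0.36, limma adjusted p = 0.0035). Col6a2 had levels from -3.70 to -0.91 in YFP+ (median -1.41) and from -1.07 to 1.47 in YFP- (median 0.59). The YFP- array of tumour 6 lay within the YFP+ range, and the difference of 4.67-fold was at the edge of the threshold (-2.22, SE 0.51, adjusted p = 0.0495). That call held in 1 of the 12 fits that leave out an array, the one without the YFP- array of tumour 6, and was lost with quantile normalization (adjusted p = 0.053), with median centring (0.080) and with slide as a block (0.064).

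Col6a3 was above background on 2 YFP+ and 5 YFP- arrays. Its levels ran from -7.29 to -2.86 in YFP+ (median -6.52) and from -6.73 to -1.15 in YFP- (median -2.12), a difference of -3.18 that was not called (SE 1.01, adjusted p = 0.19). The size of that difference rests in part on arrays that were not above background, and with normexp background correction it was -1.71. The YFP- array of tumour 6 was again the low one, and without it the adjusted p was 0.026. All 3 tested type VI chains thus had their lowest YFP- level on the same array. The alternative long chains Col6a4, Col6a5 and Col6a6, which follow each other on chromosome 9, were above background on 1, 0 and 2 YFP+ arrays and on 0, 1 and 0 YFP- arrays. The base sequence upstream of Col6a1 (GRCm38.p6, chr10:76726045-76726294, minus strand, 5′ to 3′) is given because Col6a1 and Col6a2 are neighbours on chromosome 10 and the only adjacent pair of collagen genes in which both were called, of 8 such pairs, 2 of which had both genes tested.
Col6a1: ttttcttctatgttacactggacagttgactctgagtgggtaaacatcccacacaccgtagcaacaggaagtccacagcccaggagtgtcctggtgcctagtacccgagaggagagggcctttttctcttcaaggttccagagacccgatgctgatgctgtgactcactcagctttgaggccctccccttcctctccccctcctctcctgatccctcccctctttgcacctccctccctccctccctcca
It holds none of the 3 elements searched, so no letter is in capitals, while the 2 RefSeq windows of Col6a2 hold 3 and 1 GGGCGG matches.

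Multiplexins are basement membrane collagens that carry sugar chains and release a fragment from their end, endostatin in the case of Col18a1. Both genes of this class were tested and both were called lower in YFP+. Col18a1 had levels from -3.87 to -0.68 in YFP+ (median -1.78) and from 1.04 to 2.05 in YFP- (median 1.78). The groups were separated by more than 1 log2 unit, and the log2 difference of -3.49 (SE 0.49, limma adjusted p = 0.0028) had the smallest adjusted p of all collagen genes. A second Col18a1 probe was above background on 1 YFP+ and 6 YFP- arrays. It passed the filter through its YFP- arrays, so its difference is given no size here. Col15a1 ran from -1.89 to -0.28 in YFP+ (median -1.30) and from 0.25 to 1.22 in YFP- (median 0.73). It was 3.72-fold lower in YFP+ with no overlap (-1.90, SE 0.30, adjusted p = 0.0068). A probe overlapping the one used gave -2.30 (adjusted p = 0.019 over all passing probes), and the other probe, which lies at another place of the gene (mm9, chr4:47283786-47283845), gave -0.56 and was not called (SE 0.70, adjusted p = 0.85).

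RefSeq lists a pair of starts for Col18a1, which begin transcripts of different length, and the upstream bases of both are shown because they differ in the elements they hold (GRCm38.p6, minus strand, 5′ to 3′, chr10:77166531-77166780 for the distal start and chr10:77113706-77113955 for the internal one). Capitals mark the same elements as above.
Col18a1 distal start: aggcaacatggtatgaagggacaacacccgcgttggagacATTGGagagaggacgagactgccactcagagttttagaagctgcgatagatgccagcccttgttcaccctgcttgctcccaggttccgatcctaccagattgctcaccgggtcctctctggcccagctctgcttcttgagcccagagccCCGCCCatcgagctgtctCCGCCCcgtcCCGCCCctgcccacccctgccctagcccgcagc
Col18a1 internal start: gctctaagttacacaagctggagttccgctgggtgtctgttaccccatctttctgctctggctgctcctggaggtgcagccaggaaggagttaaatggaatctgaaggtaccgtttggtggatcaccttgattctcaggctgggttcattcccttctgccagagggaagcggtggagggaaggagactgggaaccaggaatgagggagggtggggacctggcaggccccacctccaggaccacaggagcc
The distal window holds 1 CCAAT match, as ATTGG on this strand, and 3 GGGCGG matches, and the internal window holds none of the 3 elements. The probes lie, in mm9, at chr10:76514926-76514985 (the one used) and chr10:76515790-76515849, and which transcript each detects was not analysed here.

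The 2 classes left were not called. Col7a1, which makes the anchoring fibrils under epithelia, had levels from -2.03 to -0.47 in YFP+ (median -0.97) and from -0.98 to 0.80 in YFP- (median 0.18), a difference of -1.20 (SE 0.34, 95% interval -1.93 to -0.47, adjusted p = 0.12). Only the YFP- array of tumour 6 lay within the YFP+ range, and without it Col7a1 was called (adjusted p = 0.034). Col28a1, a collagen of nerve sheaths, was above background on 5 arrays of each group and differed by -0.89 (SE 0.51, adjusted p = 0.57), and Col26a1 was above background on none.

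**Figure D2:**
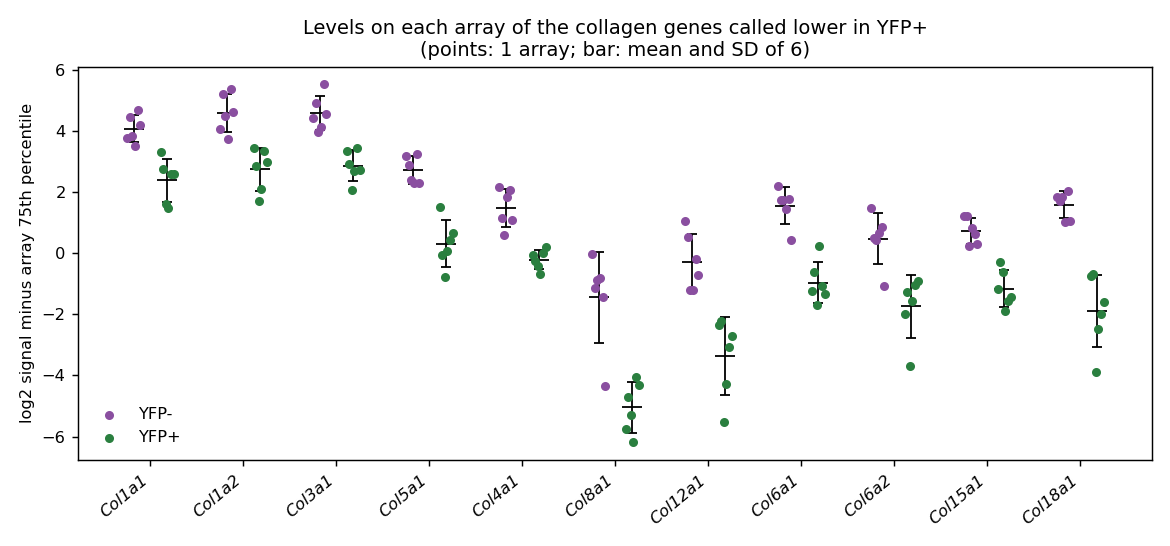
Level on each array (y axis, log2 signal minus the array's 75th percentile) of the 11 collagen genes called lower in YFP+, with the mean and SD of 6 arrays per group. YFP+ and YFP- points do not overlap except for Col8a1 and Col6a2, in each of which a single YFP- array lies within the YFP+ range.

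The probes of the 11 called genes lie, in the array's mm9 annotation, at chr11:94813115-94813174 for Col1a1, chr6:4490619-4490678 for Col1a2, chr1:45405589-45405648 for Col3a1, chr2:27892892-27892951 for Col5a1, chr8:11199009-11199068 for Col4a1 and chr16:57624471-57624530 for Col8a1. Those of the other called genes lie at chr9:79446895-79446954 for Col12a1, chr10:76171538-76171597 for Col6a1, chr10:76058931-76058990 for Col6a2, chr4:47325273-47325332 for Col15a1 and chr10:76514926-76514985 for Col18a1. Whether a probe lies in a coding or an untranslated exon was not analysed here.

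Detection divided the 44 genes as follows, counting a gene as above background on an array when any of its probes was. Of all 44, 19 were above background on all 12 arrays, and Col27a1, Col8a1 and Col12a1 on all 6 YFP- arrays but on only 4, 3 and 5 YFP+ arrays. Col8a2 was the 1 gene on all 6 YFP+ but not all YFP- arrays. More YFP- than YFP+ arrays were above background for 14 genes, more YFP+ arrays for 5, and equally many for 25. By array, 24 to 29 of the 44 genes were above background in YFP+ and 28 to 31 in YFP-. Of the 16 genes too dim to test, 6 were above background in YFP- alone (Col2a1, Col5a2, Col11a1, Col4a5, Col17a1 and Col6a5), 3 in YFP+ alone (Col19a1, Col6a4 and Col6a6), 3 in both (Col24a1, Col4a3 and Col9a1), and 4 on no array (Col10a1, Col9a3, Col22a1 and Col26a1). No dim gene was above background on more than 5 of the 12 arrays.

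**Figure D3:**
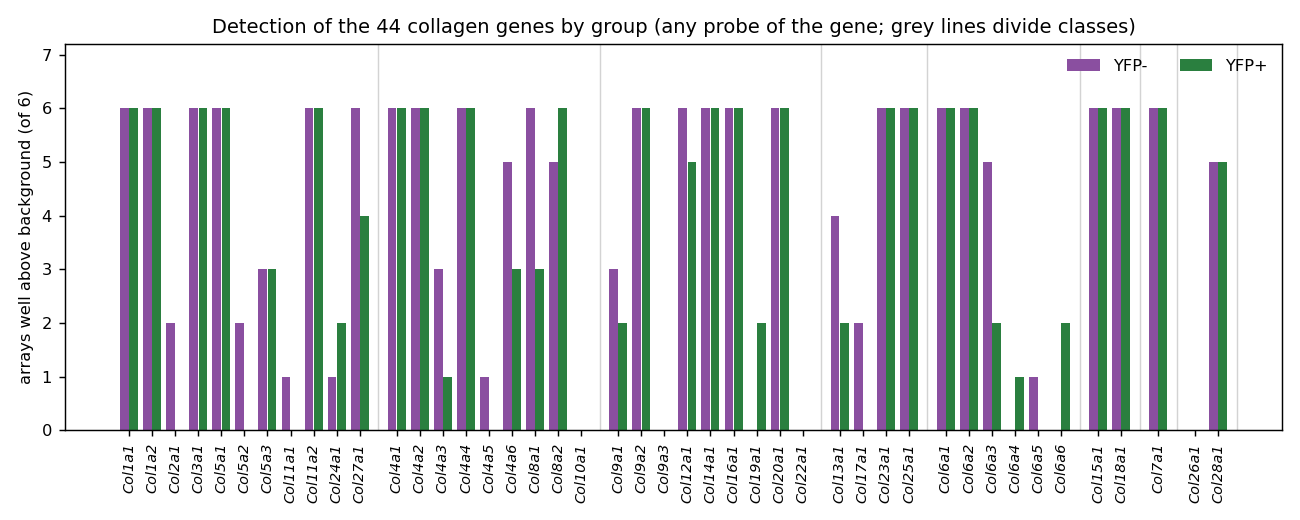
Number of arrays, of 6 per group (y axis), on which each of the 44 collagen genes was well above background, with classes divided by grey lines. Bars for Col8a1 (3 of YFP+, 6 of YFP-) and Col6a3 (2 and 5) show the widest gaps between the groups, and 19 genes reach 6 in both.

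By a code in the names of the deposited scans, read here as the slide, the arrays lay on 3 slides with 2 YFP+ and 2 YFP- arrays each. All 33 within-slide differences of the 11 called genes were below 0. They ran from -2.60 to -0.77 on slide 1, from -3.62 to -1.62 on slide 2 and from -5.30 to -1.90 on slide 3. These genes were called on the same 12 arrays, so signs below 0 follow in part from that choice. Of all 28 tested collagen genes, 26, 23 and 24 had a difference below 0 on slides 1, 2 and 3. With 2 arrays against 2, limma called 0 genes of the whole array within any slide, while 10, 13 and 15 collagen genes were lower at an unadjusted p under 0.05 on slides 1, 2 and 3, against 5.70%, 4.86% and 5.40% of all genes. The median difference of the tested collagen genes was -1.12, -1.64 and -1.95 on slides 1, 2 and 3, and by class it was -1.34, -1.83 and -2.09 for fibrillar, -1.20, -1.34 and -1.64 for network, -0.13, -0.07 and -0.44 for FACIT and -0.46, -1.01 and -0.41 for transmembrane genes. With slide as a block 11 collagen genes were called lower, with Col8a2 in the place of Col6a2, against 433 of all 20370 genes.

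**Figure D4:**
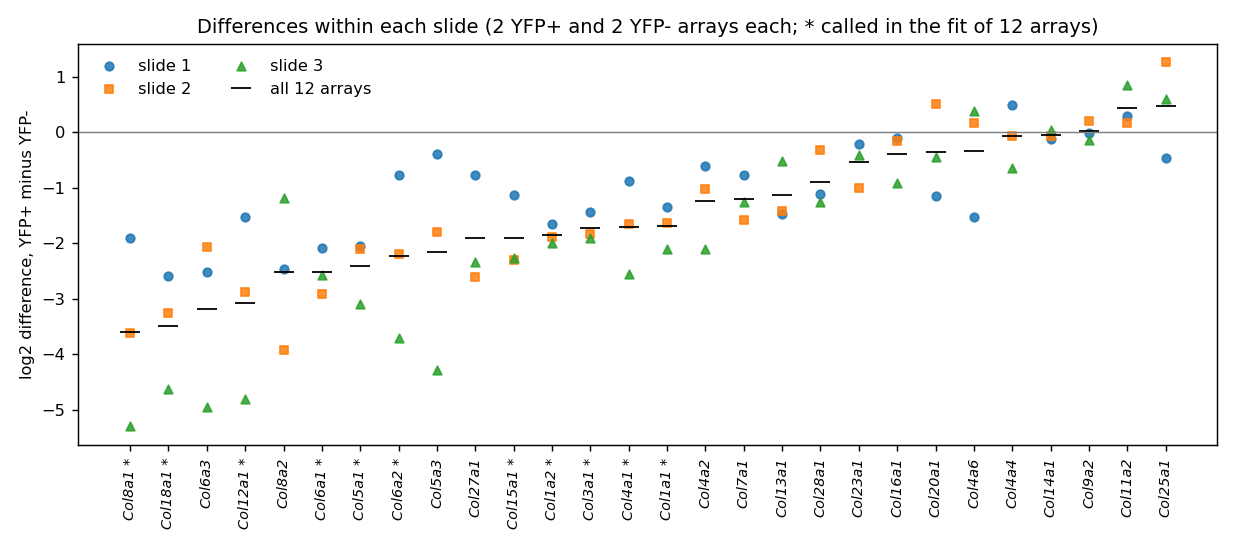
Log2 difference (y axis, YFP+ minus YFP-) of each of the 28 tested collagen genes within slides 1, 2 and 3, with the difference over all 12 arrays as a bar and called genes starred. All starred genes are below 0 on each slide, and Col8a1 spans from -1.90 on slide 1 to -5.30 on slide 3.

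Within a group the collagen genes did not all follow the same array. Relative to each gene's mean over the 12 arrays, the median over the 28 genes was lowest on the YFP+ arrays of tumours 4 (-1.27) and 3 (-1.16), and it lay between -0.66 and -0.25 on the other 4 YFP+ arrays. In YFP- it ran from 0.35 (tumour 4) and 0.41 (tumour 6) to 1.29 (tumour 5). The groups did not overlap in this median. Of the 28 genes, 12 had their lowest YFP+ level on the array of tumour 3 and 9 on that of tumour 4, both on slide 3, and 9 had their lowest YFP- level on the array of tumour 6. Without the YFP- array of tumour 6 the number of collagen genes called lower was 13, with Col6a3 and Col7a1 added, and without that of tumour 2 it was 7. Over the whole array, 279 and 221 of 20370 genes were called lower in these 2 fits. The genes called with any of the 12 arrays left out were 7: Col3a1, Col5a1, Col4a1, Col8a1, Col6a1, Col15a1 and Col18a1.

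Collagen chains need enzymes and chaperones of the secretory pathway before they can assemble. Of 36 genes of collagen synthesis and processing, 32 were tested. By limma 3 were called lower in YFP+ and 0 higher, against 1.41% and 0.334% of all genes tested. At an unadjusted limma p under 0.05 the counts were 10 and 0, against 7.51% and 3.72% of all genes. The median log2 difference was -0.40 against -0.03 for all genes. Pcolce, which enhances the cleavage of procollagen ends, was above background on 4 YFP+ and 6 YFP- arrays and was lower in YFP+ (log2 difference -4.40, SE 0.80, limma adjusted p = 0.014), a size that rests in part on arrays at background. Lox, which cross-links collagen and elastin, differed by -3.03 (SE 0.47, adjusted p = 0.0054), and Sparc, a collagen-binding matrix protein, was 3.26-fold lower (-1.70, SE 0.31, adjusted p = 0.014). Of the genes not called, those with the smallest p were P3h4, which works with the hydroxylases of collagen, at -2.79 (SE 0.75, adjusted p = 0.099, above background on 5 YFP+ and 6 YFP- arrays), the collagen chaperone Serpinh1 at -1.91 (SE 0.56, adjusted p = 0.14) and Loxl1, a relative of Lox, at -1.55 (SE 0.47, adjusted p = 0.17). Over the whole list 23 differences were below 0, where 52.8% of all genes were, and 9 were above, up to 1.62 for Tmem38b (SE 0.85, adjusted p = 0.53).

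Genes that bind or take up collagen were 12, of which 9 were tested and 0 were called in either direction by limma, with a median of -0.06. The smallest p belonged to Itga2, an integrin chain that binds collagen, at -1.96 (SE 0.46, adjusted p = 0.059), Mrc2, a receptor that takes up collagen fragments, at -2.04 (SE 0.75, adjusted p = 0.28), and the macrophage mannose receptor Mrc1 at -0.42 (SE 0.19, adjusted p = 0.44). These 3 had an unadjusted p under 0.05, all with lower levels in YFP+, as 7.51% of all genes tested had. Lair1, an inhibitory collagen receptor of leukocytes, differed by 0.07 (95% interval -0.59 to 0.73).

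Some markers of fibroblasts and of epithelium were lower in YFP+ beside the collagen genes. The counts of called markers below stand against 1.41% of all genes tested that were called lower. Of 15 fibroblast markers, 14 were tested and 6 were called lower in YFP+ (Dcn, Fbln1, Fbn1, Lum, Mfap5 and Postn), with a median of -1.79. The summed signal of the 14, in multiples of the array's 75th percentile, was 10.6 to 19.1 in YFP+ and 17.96 to 34.6 in YFP-. Such a sum is weighted to its brightest probes, here that of Pdpn, with mean levels of 2.98 in YFP+ and 3.25 in YFP-. The sums of the lists below are weighted in the same way, so they do not measure the share of a cell type. Of the 14, 10 were above background on all 12 arrays, and Dpt was above background on none of the 12. Among those called, Fbn1 was above background on 5 YFP+ and 6 YFP- arrays and Lum on 4 and 6. Acta2 and Pdgfrb, which mark activated fibroblasts and mural cells, differed by -1.66 (SE 0.58, adjusted p = 0.25) and -1.74 (SE 1.14, adjusted p = 0.64). The other fibroblast markers not called were Pdgfra at -2.65, Thy1 at -1.61, Fap at -0.45, Pdpn at -0.27, Tagln at -0.24 and Pi16 at 0.33. Of 11 markers of ductal and tumour epithelium, all were tested and 5 were called lower (Krt8, Krt18, Krt19, Muc1 and Sox9), with a median of -2.11. Sox9 passed the filter mainly through YFP- arrays, as it was above background on 1 YFP+ and 5 YFP- arrays. The sum of the 11 was 5.38 to 12.5 in YFP+ and 17.9 to 50.4 in YFP-, without overlap. Of 13 acinar markers, 1 was called lower (Cela1, above background on 2 YFP+ and 6 YFP- arrays). All 13 differences were below 0, where 52.8% of all genes were, with a median of -1.77. The sums were 5.09 to 36.9 in YFP+ and 15.3 to 139.8 in YFP-. The part of these cells in the collagen differences was not tested.

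The joint list of endothelial and mural markers and the list of macrophage markers gave medians nearer 0. Of 11 endothelial and mural markers, 10 were tested. Of these 1 was called lower, Cspg4 of pericytes and some tumour cells, against 1.41% of all genes tested. Cspg4 differed by -2.44 (SE 0.45, limma adjusted p = 0.016). Rgs5 was not tested and was above background on 0 YFP+ and 4 YFP- arrays. The median of the 10 tested genes was 0.14, with sums of 2.41 to 3.97 in YFP+ and 2.003 to 3.77 in YFP-. A median over this joint list does not describe its mural markers alone. None of the 13 macrophage markers was called by limma or had an unadjusted p under 0.05 (7.51% of all genes were lower and 3.72% higher there). Their median was -0.11, and their summed signal was 215 to 357 in YFP+ and 237 to 400 in YFP-.

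**Figure D5:**
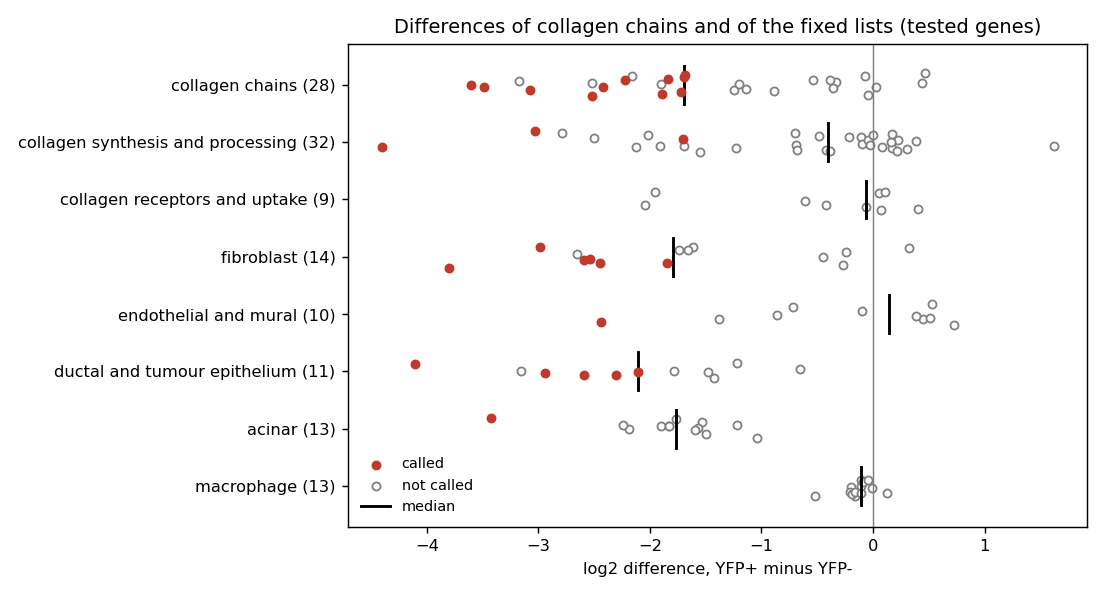
Log2 differences (x axis, YFP+ minus YFP-) of the tested genes of each list, with the number tested in brackets, red points for called genes and a black line at the median. Medians are -1.69 for collagen chains, -0.40 for collagen synthesis, -0.06 for collagen receptors, -1.79 for fibroblast, 0.14 for endothelial and mural, -2.11 for epithelial, -1.77 for acinar and -0.11 for macrophage genes.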

How the data were processed

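Red-channel arrays of 12 sorted macrophage samples were analysed. The authors deposited scanner intensity values, which per the file headers are background-subtracted processed signals from Agilent Feature Extraction, version 11.5.1.1 there and in the submitters' processing notes, and a value table that per its values is on a log2 scale with equal medians (8.83) in the 12 columns as deposited. Control spots and outlier flags were left out, replicate spots averaged, and the 75th percentile of log2 signal subtracted per array. A probe passed if it was well above background on 6 or more of 12 arrays, and the brightest passing probe stood for its gene. Groups were compared with limma 3.58.1 (R 4.3.3; lmFit, eBayes, group only) over 20370 genes with Benjamini-Hochberg adjustment and a threshold of 0.05. Standard errors are limma's moderated ones. The fit was tested on simulated arrays of the same genes. It called 18 of 100 genes with a simulated log2 difference of 1 and 62 of 100 with a difference of 2. Of 20170 genes simulated without a difference it called 2. Genes not called above can thus have differences of that size. Tables used pandas 2.3.3 and numpy 2.4.6 in Python 3.11.15, and plots matplotlib 3.10.9.

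The collagen genes, classes and lists, and the alternatives, were chosen with earlier results of these data known. The rule for names was every called collagen gene and every gene of a class with under 3 calls. Of the other lists it was called genes and the 3 with the smallest p. P3h4, Serpinh1, Loxl1, Tmem38b, Lair1, Acta2, Pdgfrb, Dpt, Csf1r, Adgre1 and C1qa were added after their values were seen. So were Pdgfra, Thy1, Fap, Pdpn, Tagln, Pi16 and Rgs5. Alternatives were other normalizations, background correction, filters, probe rules, variance models, blocks, brightness, single slides and leaving out each array. The number of arrays limits the precision. The array names 44 collagen genes, and Col21a1 was not analysed here.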

Additional observations from a re-analysis of the deposited data

Results flagged for a closer look

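Within groups of 6 arrays, 56 sets of levels (28 collagen genes in each group) were searched for an array standing apart from the other 5, by the gap to its neighbour over the whole range (Dixon's ratio against its 95% critical value). About 1 set in 20 would be picked by chance, and 2 were. Both concern the YFP- array of tumour 6. Col8a1 had a level of -4.33 there against -1.44 to -0.04 on the other YFP- arrays (gap 0.67 of the range). Col6a3 had a level of -6.73 there against -2.68 to -1.15 on the others (gap 0.73 of the range).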

How the results depend on the processing

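The collagen genes called lower in YFP+ numbered 11 in the reported fit and 9 to 12 with quantile normalization, median centring, normexp, the deposited table, no filter or the filter on 12 arrays, probes averaged per gene, intensity trend with robust variances, and either block. They numbered 0 with brightness as a covariate and 0, 0 and 0 within slides 1, 2 and 3, and 7 to 13 when each array was left out. None was called higher in any of the 26 alternatives. The median of -1.69 moved to -1.23 with normexp, -1.17 without a filter, -1.24 with the filter on 12 arrays, -1.28 with brightness and -1.12 within slide 1, and was -1.77 to -1.50 with single arrays left out. The 11 called genes kept their sign in all 284 alternative values and lost their call in 71. As they were chosen by their difference on these same arrays, the kept sign follows in part from that choice.

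Signs turned only for genes that were not called. Col4a4 was 0.067 with quantile normalization, 0.14 with median centring, 0.067 in the deposited table, 1.097 with brightness, 0.50 within slide 1 and -0.22 to 0.15 with arrays left out. Col14a1 was 0.16 with median centring, 0.16 as the mean of probes, 0.045 within slide 3 and -0.25 to 0.13 with arrays left out. Col9a2 was -0.093 with normexp, -0.0032 within slide 1, -0.13 within slide 3 and -0.22 to 0.28 with arrays left out. Col25a1 was -0.33 with the filter on 12 arrays, which takes its other probe, and -0.46 within slide 1. Col4a6 was 0.16 and 0.38 within slides 2 and 3 and Col20a1 0.51 within slide 2. With brightness Col23a1 was 0.68, Col16a1 0.62, Col4a6 1.31 and Col20a1 0.16. The causes were not tested.

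With the tumour number as a replicate block, 9 collagen genes were called lower and 0 higher, against 246 and 50 of all 20370 genes. Their median was -1.69 over the tested collagen genes, and the genes no longer called were Col8a1 (adjusted p = 0.074) and Col6a2 (0.12). Same-numbered arrays deviated together with r = -0.30, 0.11, -0.13, 0.37, 0.19 and 0.28 for tumours 1 to 6. Tumours 4, 5 and 6 have both arrays on the same slide. These values cannot decide whether same-numbered arrays come from the same animal, and the reported fit left the arrays unpaired. Dim probes limit the collagen genes that can be tested: 16 of 44 had no passing probe.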

Other observations

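Some features are described as collagen sequences on the array but lack a collagen gene name, and were not counted above. A transcript cluster described as a partial (4%) match to the bovine type I alpha-1 chain (TC1608815) was above background on all 12 arrays. It had levels of -2.69 ± 0.57 (SD, n = 6) in YFP+ against -2.54 ± 0.69 (SD, n = 6) in YFP- and a log2 difference of -0.14 (limma adjusted p = 0.94), beside -1.69 for the Col1a1 probe. Whether it detects Col1a1 was not analysed here. One described as a partial (33%) match to human type XXII (TC1681647) was above background on 6 YFP+ and 5 YFP- arrays at -3.49 ± 0.46 and -3.59 ± 0.79 (difference 0.10, adjusted p = 0.96), while the Col22a1 probe was above background on none. A feature of a predicted type XXVI transcript was above background on 3 YFP+ and 2 YFP- arrays.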
